A study of Mus musculus with 6 samples.

Results

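The gene set described here holds 46 immediate early and stress response genes of the mouse. They were taken by symbol from a list that used no measured value as a criterion, and for each symbol the transcript row with the highest summed count was used. They are 46 of the 22869 gene symbols in the table, of which 33 are early response genes and 13 are stress genes. Expression was measured by RNA sequencing in 6 libraries of mixed-strain mouse embryos at stage E14.5. The 3 mechanoreceptor libraries, numbered 2, 8 and 9, held Ret+ RA mechanoreceptors of dorsal root ganglia that carried the Ret-CreERT2 and Rosa26-Tdtomato alleles. Their mothers had been gavaged with 1.5 or 2 mg of 4-hydroxytamoxifen, a ligand that lets CreERT2 enter the nucleus, and which library had which dose is not in the labels. Trypsin was used to dissociate the ganglia, and tagged cells were collected by flow cytometry. The 3 midline libraries, numbered 2, 3 and 5, held roof plate-derived cells of the dorsal column midline, cut by laser microdissection from flash-frozen, hematoxylin-stained spinal cords of wild-type embryos. The design compared transcript levels between both cell types. The groups thus also differed in tissue, in how RNA was collected, in genotype and in tamoxifen exposure, and the effects of these cannot be told apart.

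Immediate early genes are transcribed within minutes of a stimulus, without new protein synthesis, and their messenger RNAs are short-lived. They encode transcription factors, such as Fos, Jun and Egr1, and feedback proteins that end the signal, such as the phosphatase Dusp1. Heat shock genes are driven by Hsf1 when unfolded protein accumulates in the cytosol, and the unfolded protein and integrated stress responses act through Atf6, Xbp1 and Atf4. Both kinds of gene are known to respond to the enzymatic dissociation of tissue into living cells as well as to signals in the intact tissue.

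The total counts over all transcript rows were 12031898 to 13801474 in the mechanoreceptor libraries and 5599811 to 8081153 in the midline libraries. A floor of 3 counts in a library was worth 0.346 to 0.669 CPM (read counts scaled to library size, with TMM factors), and it covers counting error only. The summed level of 16 sensory neuron markers was 20795 to 29035 CPM in mechanoreceptors and 709 to 1668 CPM in the midline, and 14 of the 16 were higher in mechanoreceptors. The summed level of 14 roof plate and radial glia markers was 184 to 339 CPM in mechanoreceptors and 1717 to 6423 CPM in the midline, and 12 of the 13 tested were higher in the midline. The midline libraries differed in their content of other tissue. Skeletal muscle markers summed to 38989 CPM in midline library 2, 384 CPM in library 3 and 3747 CPM in library 5. In bulk RNA, fewer cells of a type and less RNA per cell cannot be told apart.

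The start regions of 5 members are shown first, because they carry some of the elements through which such genes are usually induced. Fos and Fosb had the largest fold toward mechanoreceptors, Nr4a3 had the largest toward the midline, Zfp36 held a serum response element, and Hspa5 alone held an element of endoplasmic reticulum stress. Each sequence runs from 250 bases before to 50 bases after the annotated RefSeq gene start in build GRCm38.p6, on the strand of the gene. The 5 were chosen after their values were seen. In the sequences of Fos, Fosb and Nr4a3 capitals mark TGACG, the core of the cyclic AMP response element, or its reverse complement and, in Fos, the TATA box TATAAA. In the sequence of Zfp36 they mark the CArG box, the core of the serum response element, and in that of Hspa5 they mark the letters CCAAT and CCACG with the 9 bases between them.

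Fos at chr12:85473640-85473939, plus strand: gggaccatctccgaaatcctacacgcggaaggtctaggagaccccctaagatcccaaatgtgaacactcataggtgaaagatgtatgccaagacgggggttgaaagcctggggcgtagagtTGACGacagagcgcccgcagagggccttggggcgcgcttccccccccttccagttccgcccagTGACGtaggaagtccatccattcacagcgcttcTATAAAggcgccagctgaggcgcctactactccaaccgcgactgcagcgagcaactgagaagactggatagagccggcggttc

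Fosb at chr7:19309996-19310295, minus strand: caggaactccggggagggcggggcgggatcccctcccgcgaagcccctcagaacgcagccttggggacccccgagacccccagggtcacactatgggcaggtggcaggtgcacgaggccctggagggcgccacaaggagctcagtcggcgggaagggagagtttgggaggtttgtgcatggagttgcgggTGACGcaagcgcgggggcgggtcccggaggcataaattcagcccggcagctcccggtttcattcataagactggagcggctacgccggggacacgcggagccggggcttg

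Zfp36 at chr7:28379179-28379478, minus strand: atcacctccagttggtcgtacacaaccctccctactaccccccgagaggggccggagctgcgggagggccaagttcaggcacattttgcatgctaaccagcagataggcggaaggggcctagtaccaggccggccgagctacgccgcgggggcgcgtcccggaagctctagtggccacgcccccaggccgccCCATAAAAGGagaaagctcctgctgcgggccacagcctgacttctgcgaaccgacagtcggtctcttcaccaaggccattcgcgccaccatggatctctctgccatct

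Nr4a3 at chr4:48045055-48045354, plus strand: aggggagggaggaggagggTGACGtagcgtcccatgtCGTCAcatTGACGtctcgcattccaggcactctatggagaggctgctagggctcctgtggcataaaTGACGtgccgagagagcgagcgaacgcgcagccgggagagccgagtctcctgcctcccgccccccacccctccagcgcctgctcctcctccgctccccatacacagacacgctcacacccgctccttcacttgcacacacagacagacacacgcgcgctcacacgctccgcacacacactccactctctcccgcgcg

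Hspa5 at chr2:34771840-34772139, plus strand: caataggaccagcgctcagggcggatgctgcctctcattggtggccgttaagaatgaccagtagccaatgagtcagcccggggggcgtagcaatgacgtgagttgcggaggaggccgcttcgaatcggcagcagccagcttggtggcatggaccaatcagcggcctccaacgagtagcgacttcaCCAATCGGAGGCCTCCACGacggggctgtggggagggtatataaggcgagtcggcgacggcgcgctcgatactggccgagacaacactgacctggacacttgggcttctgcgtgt

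The TGACG cores of Fos began at positions -129 and -66 from the start, and its TATA box at position -33. Fosb had 1 core, at position -60. Nr4a3 had 4, at positions -231, -213, -205 and -147. The CArG box of Zfp36 began at position -58 and the stress element of Hspa5 at position -65. Of the 46 members, 35 had at least 1 window that could be searched, on both strands. TGACG, which also lies within the full element TGACGTCA, was found in 21 of the 35 genes (60.0%) and in 20.8% of all 32851 windows. The CArG box was found in 2 of the 35 (Zfp36 and Egr2) and in 1.63% of windows, and TGACGTCA in 2 of the 35 (Btg2 and Dusp1) and in 1.79% of windows. The AP-1 site TGANTCA, which Fos and Jun proteins bind, was in 2 of the 35 and in 7.81% of windows. A heat shock element, written as GAANNTTC or TTCNNGAA, was in 7 of the 35 (20.0%) and in 15.1% of windows. The TATA box was in 7 of the 35 and in 13.6% of windows, and the element of Hspa5 was in 0.119% of windows. A member counted if any of its windows matched, and Egr2 and Dnajb1 had more than 1, while the share of all windows counts each window. These windows were not matched for base composition, and a match is a run of letters, not a measured binding site. Elements farther than 250 bases before a start were not searched, so a gene without a match, such as Fos for the CArG box, may hold one there. TGACG was present on both sides of the comparison, in 7 of the 11 searched genes that were higher in mechanoreceptors and in 4 of the 4 that were higher in the midline. It was also in 8 of the 18 searched genes that were not called.

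Of the 46 members, 43 passed the filter on low counts, and 3 did not (Egr3, Egr4 and Npas4). Among the 43, 16 were higher in mechanoreceptors and 4 were higher in the midline, while 23 were not called, by the quasi-likelihood F test of edgeR at an adjusted p under 0.05 over all 15314 genes tested. The background over all genes was 18.8% toward mechanoreceptors and 18.9% toward the midline, so that 37.8% were called in either direction. The corresponding shares of the members tested were 37.2%, 9.3% and 46.5%. The members called were therefore mostly on the mechanoreceptor side, where all genes were split evenly, while their share called in either direction was closer to the background. The median log2 fold change, mechanoreceptor minus midline, was 0.60 over the members and -0.05 over all genes. With upper-quartile scaling, 36.9% of the calls over all genes were toward mechanoreceptors in place of 49.9%, and the members called were 13 toward mechanoreceptors and 5 toward the midline. At least a 2-fold difference was called in 15 members toward mechanoreceptors and in 3 toward the midline, together 41.9% of the members tested beside 30.4% of all genes. The libraries of the groups did not overlap in 24 of the 43 members, or 55.8%, with mechanoreceptors above in 18 and the midline above in 6. That share is near the 54.8% of all genes tested, and it is no result about the members.

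Many of the calls rest on few libraries. Without mechanoreceptor library 2 the number higher in mechanoreceptors was 9, without library 9 it was 8, and without midline library 5 it was 10, while the share of all genes called fell to 25.6%, 26.1% and 28%. Without midline library 2 or 5, 2 members were higher in the midline. The labels did not say whether libraries came from separate embryos or litters, so the p-values reflect only how much these libraries varied, and part of that may be technical.

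**Figure D1:**
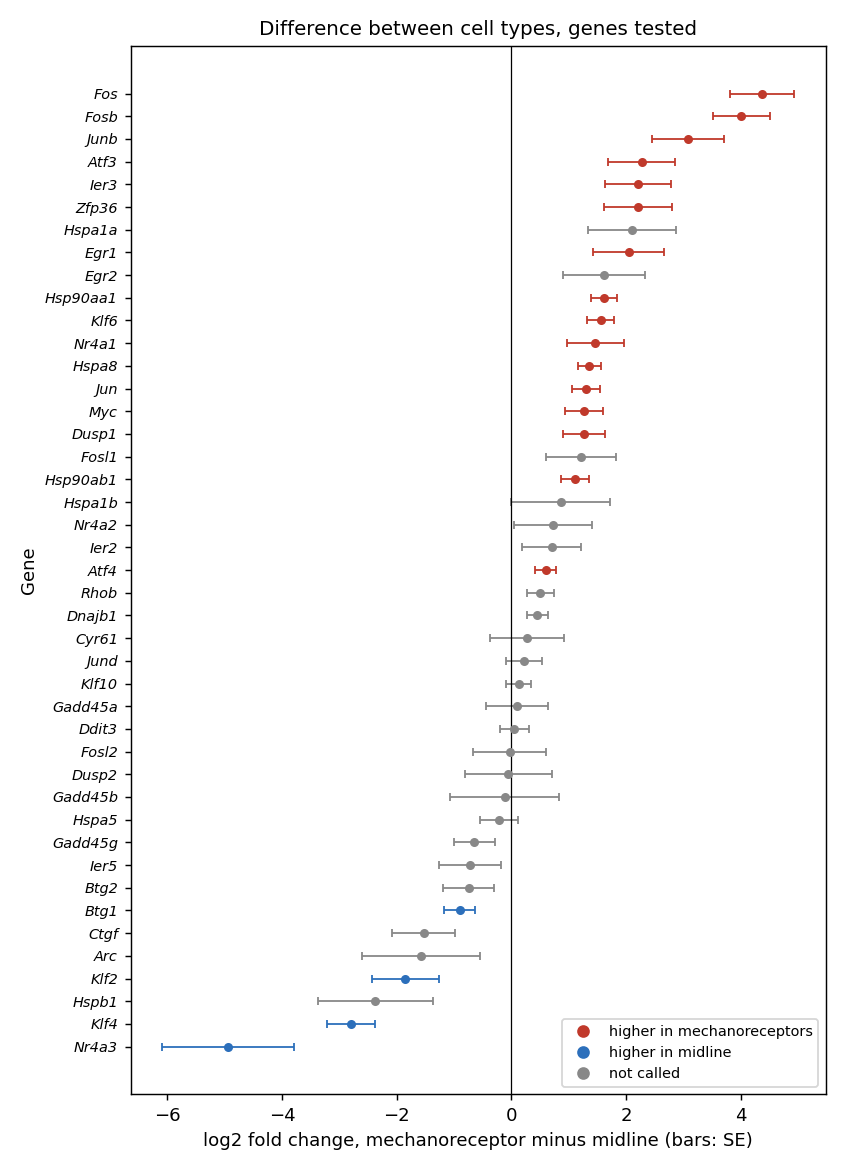
The log2 fold change (mechanoreceptor minus midline) of the 43 members tested, with bars of 1 SE from the edgeR fit. Red points are the 16 members called higher in mechanoreceptors, blue points the 4 called higher in the midline, and grey points the 23 not called.

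The Fos and Jun family forms the dimeric factor AP-1, and Atf3, of another family, was grouped with it here. Of these 8 genes, 5 (62.5%, Atf3 among them) were higher in mechanoreceptors and none was higher in the midline. The shares of all genes were 18.8% and 18.9%. Fos, a dimer partner of Jun, had 32.5, 24.6 and 51.6 CPM in mechanoreceptor libraries 2, 8 and 9 and 2.09, 0.446 and 2.53 CPM in midline libraries 2, 3 and 5. Every mechanoreceptor library stood far above every midline library, and midline library 3 was below its floor of 3 counts. The fold was 20.5 (log2 fold change 4.36, SE 0.56, adjusted p = 0.00134, edgeR). Fosb, its close paralog, had 15.5, 19.2 and 29.4 CPM against 0.642, 1.78 and 1.58 CPM in the same order of libraries, again without overlap. Its log2 fold change was 4.004 (SE 0.50, adjusted p = 0.00122). Per kilobase of transcript, Fos ranked 15 among the 46 members in mechanoreceptors and 37 in the midline.

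Jun, the main dimer partner of Fos, had a smaller difference on a higher base. Its levels were 136, 127 and 112 CPM in mechanoreceptors and 41.1, 43.9 and 67.2 CPM in the midline. All midline libraries expressed it well above the floor, and the groups did not overlap (log2 fold change 1.30, SE 0.24, adjusted p = 0.0049). Junb, a partner induced with Fos, had 5.19, 2.73 and 4.34 CPM against 0.321, 0.446 and 0.631 CPM. It was low throughout, and in midline libraries 2 and 3 it lay below the floor (log2 fold change 3.08, SE 0.63, adjusted p = 0.00752). Atf3, a stress-induced factor that also marks injured sensory neurons, had 19.1, 6.30 and 30.3 CPM against 4.97, 3.35 and 3.16 CPM. Mechanoreceptor library 8 came close to the midline (log2 fold change 2.27, SE 0.58, adjusted p = 0.018). The call of Atf3 was lost without mechanoreceptor library 2 (adjusted p = 0.0532) or 9 (adjusted p = 0.0673), without midline library 5 (adjusted p = 0.0545) and with limma-voom (adjusted p = 0.0793).

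The other 3 AP-1 genes were not called. Jund, the member that is present in resting cells, had 10.9 to 15.9 CPM in mechanoreceptors and 10.3 to 11.7 CPM in the midline (log2 fold change 0.22, SE 0.32, adjusted p = 0.616). Fosl1 was 2.68 to 3.69 CPM against 0.642 to 2.23 CPM, without overlap (log2 fold change 1.21, adjusted p = 0.152), and it passed with the deposited log2 values (adjusted p = 0.0274). Fosl2 had 29.6, 21.4 and 25.8 CPM in mechanoreceptors and 56.9, 12.0 and 9.16 CPM in the midline. Midline library 2, the library rich in muscle markers, was the highest of all 6 and the other midline libraries were the lowest (log2 fold change -0.03, SE 0.63, adjusted p = 0.975). Without that library the log2 fold change was 1.30 and the gene was called higher in mechanoreceptors (adjusted p = 0.0148).

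Egr1, a zinc finger factor induced through serum response elements, had 96.5, 59.9 and 104 CPM in mechanoreceptors and 44.1, 7.36 and 11.2 CPM in the midline. Midline library 2 was again the highest of its group, by over 3 times the next, and the groups did not overlap (log2 fold change 2.04, SE 0.61, adjusted p = 0.0319). Without midline library 2 the log2 fold change was 3.23 (adjusted p = 0.000423). The call was lost when mechanoreceptor library 2, 8 or 9 or midline library 5 was left out, with adjusted p = 0.0875, 0.0528, 0.0905 and 0.0814. Egr2, its paralog, had 1.54 to 7.92 CPM against 0.892 to 2.25 CPM and was not called (log2 fold change 1.61, SE 0.71, adjusted p = 0.107). It passed without mechanoreceptor library 8 (adjusted p = 0.0476) and with the deposited log2 values (adjusted p = 0.0337). Egr3 was at or below 1.12 CPM in every library, and Egr4 had a count of 1 in mechanoreceptor library 2 and of 0 in the other libraries.

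**Figure D2:**
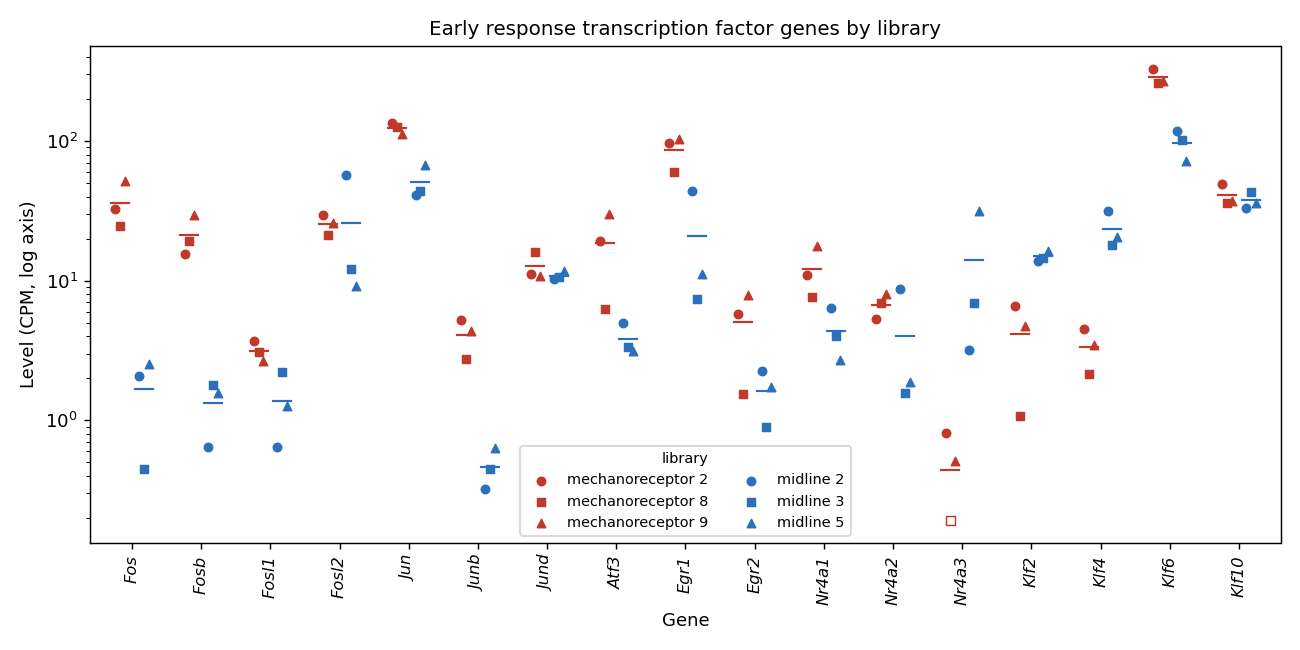
CPM on a log axis of 17 early response transcription factor genes in the 3 mechanoreceptor libraries (red) and the 3 midline libraries (blue), with horizontal lines at group means. The open symbol marks a library with 0 counts, drawn at the bottom of the axis range. Fos, Fosb and Junb show the widest gaps toward mechanoreceptors, and Nr4a3, Klf2 and Klf4 lie the other way.

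The 3 Nr4a genes, which encode orphan nuclear receptors induced by calcium and cyclic AMP, went in different directions. Nr4a1 had 10.96, 7.60 and 17.8 CPM in mechanoreceptors and 6.42, 4.02 and 2.68 CPM in the midline. The groups came close to each other without overlap, and the call was near the threshold (log2 fold change 1.46, SE 0.49, adjusted p = 0.0471). It was lost in 9 of 16 alternatives, among them 5 of the 6 that left out a library, with adjusted p-values up to 0.155. Nr4a3 had 0.807, 0 and 0.511 CPM in mechanoreceptors and 3.21, 6.92 and 31.7 CPM in the midline. Its mechanoreceptor counts were 7, 0 and 4, and midline library 5 held most of its midline counts (log2 fold change -4.93, SE 1.15, adjusted p = 0.0123). Without midline library 5 its log2 fold change was -3.43 (adjusted p = 0.0577), and without mechanoreceptor library 9 it was -5.03 (adjusted p = 0.051). Nr4a2 had 5.31, 6.89 and 8.05 CPM in mechanoreceptors and 8.66, 1.56 and 1.89 CPM in the midline. It was not called (log2 fold change 0.72, SE 0.68, adjusted p = 0.427), and without midline library 2, in which it was highest, it was called higher in mechanoreceptors (log2 fold change 1.97, adjusted p = 0.0297).

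The Kruppel-like factors are zinc finger proteins of which several are induced as early genes, and they too were split. Klf6, which zebrafish need to regrow optic axons, had 330.4, 259 and 269 CPM in mechanoreceptors and 118, 102 and 71.8 CPM in the midline. It was the most abundant early response factor of the set in mechanoreceptors, at 67.8 CPM per kilobase, with a log2 fold change of 1.55 (SE 0.24, adjusted p = 0.00246). Klf4, a factor of epithelial and smooth muscle cells that restrains axon growth in neurons, had 4.50, 2.14 and 3.45 CPM in mechanoreceptors and 31.8, 18.1 and 20.7 CPM in the midline. Klf2, which is known above all from endothelium under flow, had 6.57, 1.07 and 4.73 CPM against 13.79 and 16.4 CPM in midline libraries 2 and 5, with library 3 between them. In both genes all midline libraries lay above all mechanoreceptor libraries, with a ratio of the highest to the lowest midline library of 1.76 for Klf4 and 1.19 for Klf2. The log2 fold change of Klf4 was -2.80 (SE 0.41, adjusted p = 0.0022), and that of Klf2 was -1.85 (SE 0.59, adjusted p = 0.0388).

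Markers of pericytes and smooth muscle were in the order of Klf4 in the midline. The summed level of 10 such markers was 884, 369 and 512 CPM in midline libraries 2, 3 and 5 and 28 to 45.1 CPM in mechanoreceptors, and 9 of the 10 were higher in the midline and none was at 0 in all libraries of a group. In mechanoreceptors the sum was highest in library 8, where Klf4 was lowest. Markers of skeletal muscle, connective tissue, keratinocytes and cartilage were also in the order of Klf4 in the midline. The part of any of these cells in the level of Klf4 was not tested. Endothelial markers were in the order of Klf2 in mechanoreceptors but not in the midline, where they were nearly level. The summed level of 13 such markers was 690.2 to 710.2 CPM in the midline and 98.8 to 265 CPM in mechanoreceptors, lowest in library 8, where Klf2 was lowest too, and 12 of the 13 were higher in the midline and none was at 0 in all libraries of a group. In the midline, Klf2 was lowest in library 2 and highest in library 5. Markers of roof plate and radial glia, of Schwann cells and satellite glia, and of macrophages and microglia had the order of Klf2 there. In mechanoreceptors the roof plate and Schwann cell lists were highest in library 8 and the macrophage list was lowest in it. The part of any of these cells in the level of Klf2 was not tested. The call of Klf2 was lost without mechanoreceptor library 9 or without any of the midline libraries, with adjusted p-values up to 0.0975, and with the deposited log2 values (adjusted p = 0.056). Klf10, an early target of TGF-beta signals, had 36.2 to 48.9 CPM against 33.4 to 43.5 CPM and was not called (log2 fold change 0.12, SE 0.22, adjusted p = 0.693).

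Arc, an activity-induced regulator of glutamate receptors at synapses, was low. It had 0.807, 0.356 and 3.19 CPM in mechanoreceptors and 1.12, 2.01 and 9.79 CPM in the midline, and the highest library of each group was over 3 times the next. It was not called (log2 fold change -1.58, SE 1.03, adjusted p = 0.256). Without midline library 5 its log2 fold change was -0.06. Npas4, which in neurons responds to calcium entry, was not tested and ranged from 0.255 to 4.27 CPM in mechanoreceptors and from 0.474 to 4.91 CPM in the midline.

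Of the 10 feedback and other early response genes, 4 were higher in mechanoreceptors (Ier3, Dusp1, Zfp36 and Myc) and 1 was higher in the midline (Btg1). That is 50% called, beside 37.8% of all genes. Ier3, a short-lived regulator of survival, had 18.0, 10.3 and 24.9 CPM in mechanoreceptors and 3.05, 6.92 and 1.74 CPM in the midline (log2 fold change 2.21, SE 0.57, adjusted p = 0.0189). Dusp1, which dephosphorylates MAP kinases, had 55.7, 37.8 and 49.9 CPM against 18.1, 30.6 and 11.5 CPM, with a log2 fold change of 1.26 (SE 0.36, adjusted p = 0.0276). Neither gene overlapped between the groups. Myc, a growth factor-induced regulator of cell growth, had 103, 131 and 146 CPM in mechanoreceptors and 76.8, 51.8 and 29.8 CPM in the midline (log2 fold change 1.26, SE 0.34, adjusted p = 0.0207). Unlike most early genes it was not lowest in mechanoreceptor library 8.

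Zfp36, which binds AU-rich elements and destabilizes early messenger RNAs, had 71.4, 18.1 and 116 CPM in mechanoreceptors and 18.8, 14.7 and 11.1 CPM in the midline. Mechanoreceptor library 8 lay within the midline range while the other mechanoreceptor libraries were far above it, a ratio of 6.42 between the highest and the lowest (log2 fold change 2.20, SE 0.59, adjusted p = 0.0217). Btg1, an antiproliferative gene, had 39.8, 32.4 and 57.2 CPM in mechanoreceptors and 100.2, 75.0 and 67.2 CPM in the midline. All midline libraries were above all mechanoreceptor libraries, with a log2 fold change of -0.91 (SE 0.27, adjusted p = 0.0311). None of the 4 calls toward mechanoreceptors held without mechanoreceptor library 9 (adjusted p-values from 0.0685 to 0.0773), and only that of Myc held without library 2. The call of Myc was also lost without library 8 (adjusted p = 0.0613), and those of Dusp1 and Zfp36 without midline library 5 (adjusted p = 0.0568 and 0.0652). Dusp1 lost its call with upper-quartile scaling too (adjusted p = 0.0566), as did Zfp36 with limma-voom (adjusted p = 0.0902). The call of Btg1 was lost without mechanoreceptor library 2 or 8 or midline library 2, with adjusted p-values up to 0.12, and with no filter on low counts (adjusted p = 0.0507).

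The other 5 genes of this role were not called. The nuclear proteins Ier2 and Ier5 had log2 fold changes of 0.70 and -0.72, the phosphatase gene Dusp2 had -0.06, the antiproliferative gene Btg2 had -0.75, and the small GTPase gene Rhob had 0.50. Rhob was called higher in mechanoreceptors without midline library 3 (adjusted p = 0.0211). Ier5 had 22.5, 10.3 and 59.1 CPM in mechanoreceptors and 45.4, 53.3 and 52.7 CPM in the midline. Its midline libraries were alike and its mechanoreceptor libraries lay on both sides of them, and without mechanoreceptor library 9 it was called higher in the midline (log2 fold change -1.60, adjusted p = 0.0275).

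**Figure D3:**
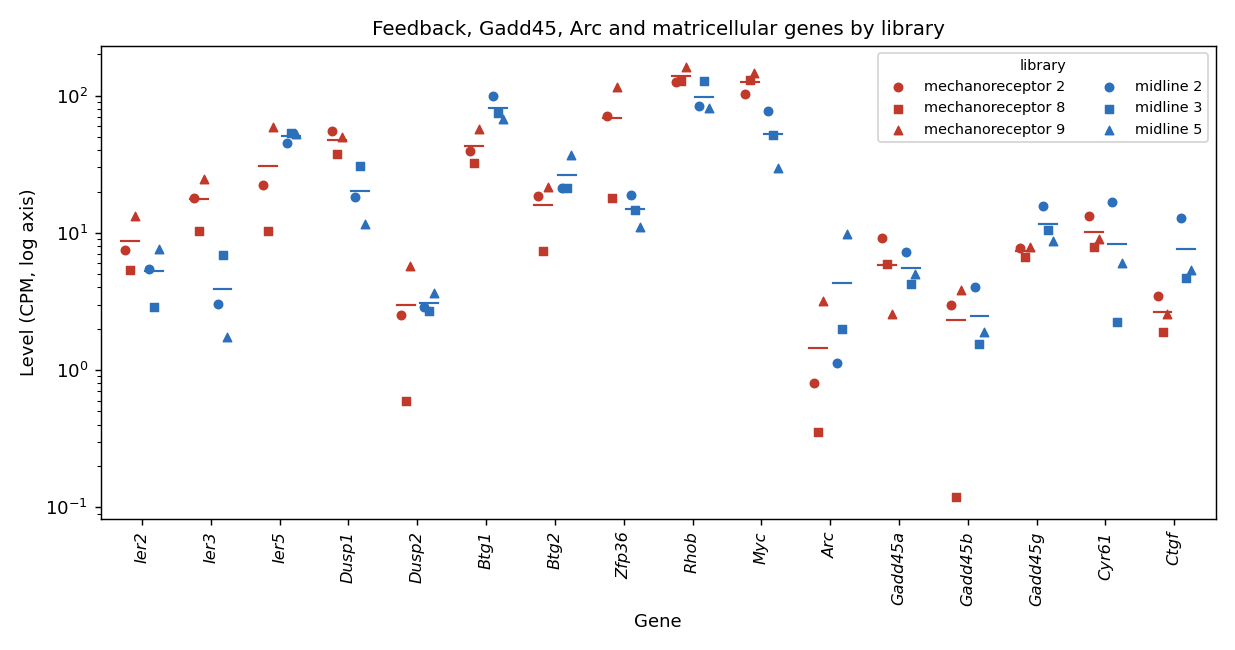
CPM on a log axis of the feedback genes, Arc, the Gadd45 family and both secreted matricellular genes in the 3 mechanoreceptor libraries (red) and the 3 midline libraries (blue), with horizontal lines at group means. In Zfp36, Ier5, Dusp2 and Gadd45b the square of mechanoreceptor library 8 lies far below the circle and triangle of libraries 2 and 9.

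Gadd45a, Gadd45b and Gadd45g, which encode proteins of the DNA damage and stress response, were not called. Gadd45a had 9.11, 5.94 and 2.55 CPM in mechanoreceptors and 7.22, 4.24 and 5.05 CPM in the midline, with a log2 fold change of 0.09. Gadd45g had 7.73, 6.65 and 7.92 CPM against 15.7, 10.5 and 8.68 CPM, which did not overlap but missed the threshold (log2 fold change -0.65, SE 0.36, adjusted p = 0.193). Gadd45b had a log2 fold change of -0.12 and a single count in mechanoreceptor library 8.

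The secreted matricellular genes Cyr61 and Ctgf, now named Ccn1 and Ccn2, are early targets of YAP and serum response factor. Cyr61 had 13.4, 7.84 and 9.07 CPM in mechanoreceptors and 16.7, 2.23 and 5.998 CPM in the midline, with both extremes in midline libraries (log2 fold change 0.27, SE 0.65, adjusted p = 0.767). Ctgf had 3.46, 1.90 and 2.55 CPM against 12.8, 4.68 and 5.37 CPM. Its groups did not overlap and it missed the threshold (log2 fold change -1.53, SE 0.55, adjusted p = 0.0587). It passed with upper-quartile scaling (adjusted p = 0.0386), without midline library 3 (adjusted p = 0.0457) and with DESeq2 (adjusted p = 0.0243).

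Atf4, the translation-controlled factor of the integrated stress response, had 203, 216 and 234 CPM in mechanoreceptors and 161, 123 and 148 CPM in the midline. The groups did not overlap and the difference was small (log2 fold change 0.60, SE 0.19, adjusted p = 0.0357). The call was lost in 7 of 16 alternatives, with adjusted p-values up to 0.377. Its target Ddit3, which encodes the factor CHOP and is induced when endoplasmic reticulum stress persists, had 16.7, 20.3 and 20.9 CPM against 17.002, 20.1 and 19.1 CPM. The levels of Ddit3 lay in the same range in both groups (log2 fold change 0.05, SE 0.26, adjusted p = 0.9).

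Of the 8 chaperone genes, 3 were higher in mechanoreceptors and none was higher in the midline. That is 37.5% called, near the 37.8% of all genes. These were the abundant cytosolic chaperones that are also present in unstressed cells. Hsp90ab1, the constitutive form of Hsp90, had 3876, 4154 and 4517 CPM in mechanoreceptors and 2126, 1729.9 and 1956 CPM in the midline (log2 fold change 1.11, SE 0.25, adjusted p = 0.0104). Hsp90aa1, the inducible form, had 951, 937 and 1216 CPM against 293, 384 and 340.3 CPM, with a log2 fold change of 1.61 (SE 0.23, adjusted p = 0.00179). Hspa8, the constitutive Hsp70, had 626, 561 and 624 CPM against 200.2, 239.6 and 267 CPM, with a log2 fold change of 1.36 (SE 0.20, adjusted p = 0.00225). In each of the 3 genes the libraries of a group were close together and the groups lay far apart. The call of Hsp90ab1 was lost with the deposited log2 values (log2 fold change 0.51, adjusted p = 0.165).

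The strictly stress-induced Hsp70 genes were low in both groups. Hspa1a had 7.61, 6.65 and 8.30 CPM in mechanoreceptors and 2.09, 3.12 and 0.158 CPM in the midline, and Hspa1b had 3.46, 0.832 and 4.09 CPM against 2.73, 1.56 and 0.316 CPM. Hspa1a did not overlap between groups and missed the threshold (log2 fold change 2.10, SE 0.77, adjusted p = 0.0636), while it passed without midline library 3 (adjusted p = 0.0401), with DESeq2 (adjusted p = 0.0239), with limma-voom (adjusted p = 0.028) and with the deposited log2 values (adjusted p = 0.0212). Hspa1b was not called (log2 fold change 0.86, SE 0.87, adjusted p = 0.461). Both values are uncertain, because 58.8% of all runs of 50 bases in the Hspa1a transcript also occur in Hspa1b. Their start windows have the same base at 296 of 300 positions.

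Hspa5, the chaperone BiP of the endoplasmic reticulum whose start region is printed above, was abundant in both groups. It had 660.5, 544 and 499 CPM in mechanoreceptors and 685, 373 and 930.4 CPM in the midline. The midline libraries lay on both sides of the mechanoreceptors, and the gene was not called (log2 fold change -0.22, SE 0.33, adjusted p = 0.622). Dnajb1, the Hsp40 cochaperone induced by heat shock, was 117 to 132 CPM in mechanoreceptors and 81.1 to 103 CPM in the midline. Its groups did not overlap and it missed the threshold (log2 fold change 0.45, SE 0.18, adjusted p = 0.0793), which it passed without midline library 3 (adjusted p = 0.041). Hspb1, a small heat shock protein of muscle, skin and sensory neurons, had 2.77, 4.04 and 6.002 CPM in mechanoreceptors and 56.0, 2.45 and 7.58 CPM in the midline. Only midline library 2 was high (log2 fold change -2.37, SE 0.996, adjusted p = 0.0949), and without it the log2 fold change was -0.22. It was called higher in the midline without midline library 3 (adjusted p = 0.0182) and with DESeq2 (adjusted p = 0.0217).

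**Figure D4:**
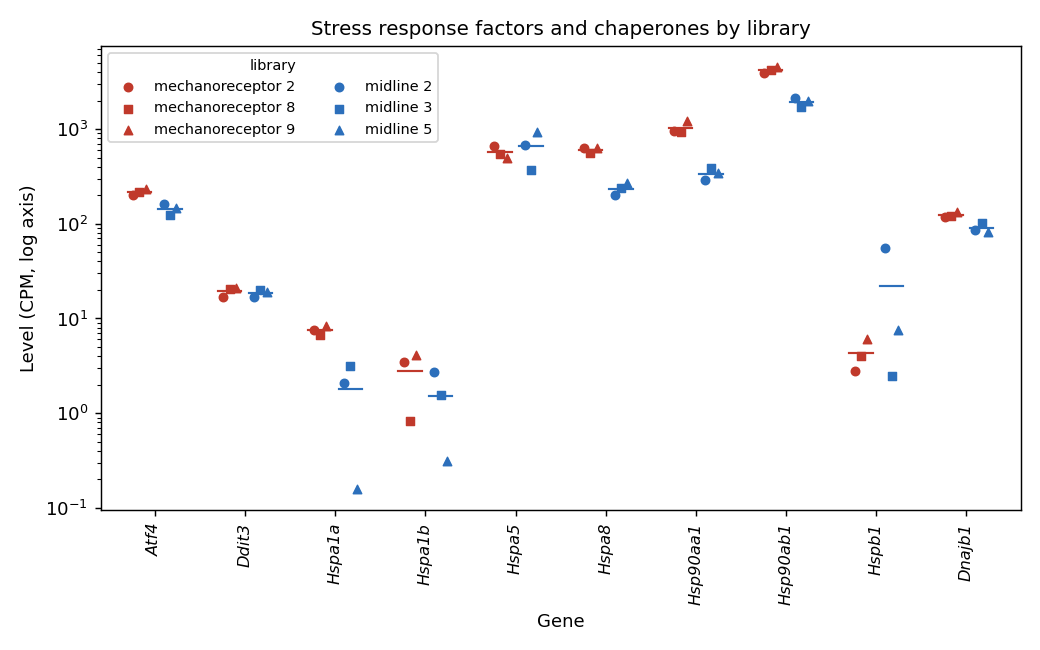
CPM on a log axis of the stress response factors and chaperones in the 3 mechanoreceptor libraries (red) and the 3 midline libraries (blue), with horizontal lines at group means. Hspa8, Hsp90aa1 and Hsp90ab1 form tight, separate groups, Ddit3 lies in the same range in both, and Hspb1 is high in midline library 2 alone.

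Per kilobase of transcript, Hsp90ab1 was the most abundant member in both groups, with 1660 CPM per kilobase in mechanoreceptors and 769 in the midline. Hsp90aa1, Hspa8 and Hspa5 followed in mechanoreceptors at 315, 252 and 217 CPM per kilobase. In the midline Hspa5 was second, with 254 ± 107 (SD, n = 3), ahead of Hsp90aa1 at 103 and Hspa8 at 98.4 CPM per kilobase. Hspa8 and Hspa5 in mechanoreceptors, and Hsp90aa1 and Hspa8 in the midline, stood next to each other in this order by less than the sum of their SDs.

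The mechanoreceptor libraries differed from each other in a shared way. Of the 30 early response members tested, 23 (76.7%) had their lowest mechanoreceptor level in library 8, as 28.1% of all genes tested did, and 1 (Jund) had its highest level there. Over all 43 members the numbers were 29 (67.4%) lowest and 1 highest in library 8. Library 9 was the highest mechanoreceptor library in 27 of the 43 (62.8%), beside 33.9% of all genes. For example, library 8 had the lowest mechanoreceptor value of Fos, Junb, Atf3, Egr1, Nr4a1, Ier3, Dusp1 and Zfp36. These are among the genes that were higher in mechanoreceptors as a group. Library 8 also had the lowest mechanoreceptor value of all members called higher in the midline (Nr4a3, Klf2, Klf4 and Btg1). In the median member the coefficient of variation over mechanoreceptor libraries was 0.295, and it was 0.321 for the early response members, 0.128 for the chaperones and 0.196 for all genes tested. Over midline libraries it was higher in each case, at 0.344, 0.427, 0.282 and 0.287 in the same order.

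**Figure D5:**
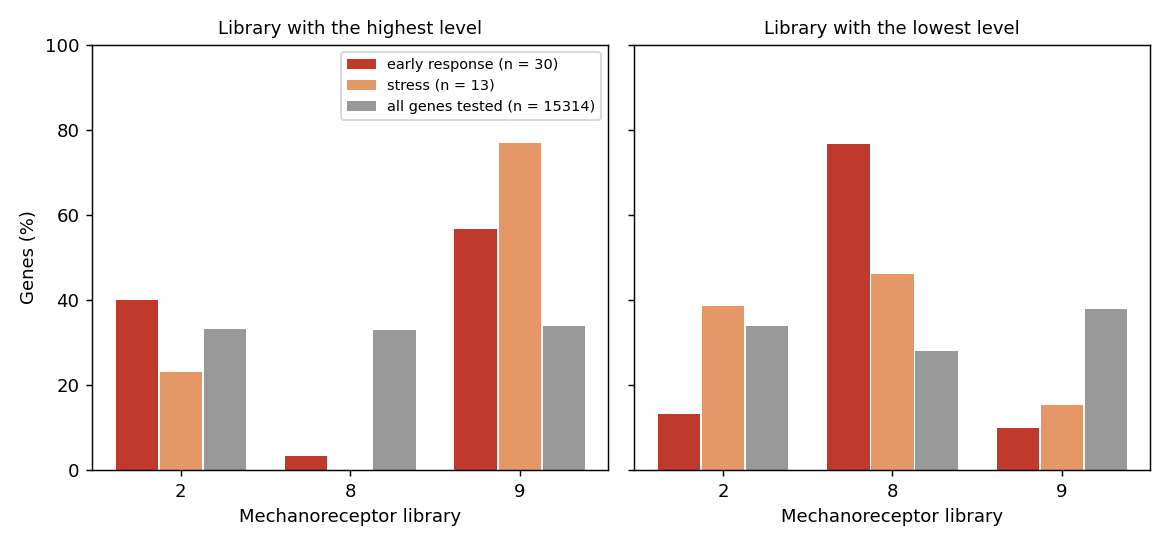
The share of genes (%) whose highest level (left) or lowest level (right) among the mechanoreceptor libraries fell in library 2, 8 or 9, for the 30 early response members (red), the 13 stress members (orange) and all 15314 genes tested (grey). In the right panel the early response members reach 76.7% in library 8, where all genes reach 28.1%.

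Of the 12 lists of cell type markers, some were low in mechanoreceptor library 8 and some were high in it. The summed level of 12 macrophage and microglia markers was 310 CPM in mechanoreceptor library 2, 96.3 CPM in library 8 and 328 CPM in library 9, and that of the endothelial markers was 265, 98.8 and 160.1 CPM. The connective tissue sum, 346, 248 and 251 CPM, was about as low in library 9 as in library 8. Library 8 was instead the highest for markers of Schwann cells and satellite glia, with 380.4, 657 and 532 CPM, and of roof plate and radial glia, with 184, 339 and 254 CPM. It was also the highest for pericyte and smooth muscle markers, with 32.5, 45.1 and 28 CPM, for spinal neuron markers, with 7.04, 12.6 and 8.17 CPM, and for keratinocyte markers, with 24.8, 31.2 and 26.6 CPM. The other 4 lists, sensory neuron, erythroid, skeletal muscle and cartilage, were lowest in library 2 and highest in library 9. None of the 12 macrophage markers was at 0 in all mechanoreceptor libraries. In the midline the macrophage sum was 257 to 405 CPM, and 2 of the 12 were higher there. The part of such cells in the order of the libraries was not tested.

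In the midline the members had no library that was commonly lowest, and library 2 was highest in 20 of 43 (46.5%), beside 35.7% of all genes. In Egr1, Fosl2, Hspb1 and Nr4a2 library 2 was at least 3 times the next midline library, and in Arc and Nr4a3 library 5 was. Beside its muscle content, midline library 2 had the highest sum of connective tissue markers, with 7899.8 CPM against 775 and 1397 CPM in libraries 3 and 5, and of keratinocyte markers, with 889 CPM against 38.6 and 47.5 CPM. The part of these tissues in those 4 genes was not tested.

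Genes of the connected pathways were counted in the same way. A list of 30 heat shock and chaperone genes that are not members is mostly cytosolic and also holds Hspd1, Hspe1 and Hspa9 of mitochondria and Hspa13 of the endoplasmic reticulum. Of these 30, 14 were called toward mechanoreceptors and 2 toward the midline, or 46.7% and 6.67% beside 18.8% and 18.9% of all genes, with a median log2 fold change of 0.60. Dnaja1, an Hsp40 partner of Hspa8, was 629 ± 41.9 CPM (SD, n = 3) in mechanoreceptors and 206 ± 45.2 CPM in the midline (log2 fold change 1.61, adjusted p = 0.00186). The mitochondrial chaperonin gene Hspd1 had a log2 fold change of 0.92 (adjusted p = 0.0275) and the exchange factor gene Hsph1 1.13 (adjusted p = 0.00446). Hspa4 was not called, at 0.58 (adjusted p = 0.0579). On the midline side were Hspa13 (log2 fold change -0.97) and Cryab (-4.14), a small heat shock protein of muscle and lens with 231 CPM in midline library 2 and 2.68 and 21.8 CPM in libraries 3 and 5. The number higher in mechanoreceptors was 7 with upper-quartile scaling or the deposited log2 values, 8 without mechanoreceptor library 9, and 9 without mechanoreceptor library 2 or 8 or midline library 5.

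The unfolded protein and integrated stress response list had few calls, 2 toward mechanoreceptors and 3 toward the midline among 38 tested. The share was 13.2%, beside 37.8% of all genes, and the median log2 fold change of the list was 0.00. Those higher in mechanoreceptors were Asns, which makes asparagine, and Mthfd2, a mitochondrial folate enzyme. Asns was 209.7 ± 11.9 CPM against 36.2 ± 10.2 CPM (SD, n = 3; log2 fold change 2.53, adjusted p = 0.000459), and Mthfd2 was 34.2 ± 1.69 CPM against 11.9 ± 2.01 CPM (log2 fold change 1.53, adjusted p = 0.00322). Toward the midline were the serine pathway enzymes Phgdh (log2 fold change -1.28) and Shmt2 (-1.05), and Dnajc3 (-0.82), a cochaperone of the endoplasmic reticulum. The 3 midline calls fell to 0 without mechanoreceptor library 8 or 9 or midline library 5, and without midline library 3 there were 7. The abundant reticulum chaperone gene Hsp90b1 was not called (log2 fold change -0.35, SE 0.30, adjusted p = 0.384).

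Among 30 regulators of the MAP kinase, serum response factor and CREB pathways, 8 were called toward mechanoreceptors and 5 toward the midline, or 26.7% and 16.7%, near the shares of all genes. The stress kinase genes Mapk9 and Mapk10, which encode Jun kinases, and the scaffold gene Mapk8ip1 had log2 fold changes of 1.34, 1.29 and 1.50 (adjusted p = 0.00132, 0.0193 and 0.0154). Elk3, a ternary complex factor that works with serum response factor, was higher in the midline at -1.91 (adjusted p = 0.00694), as were Atf1 at -1.01 and the coactivator gene Crebbp at -0.66. Map3k12, the axonal kinase upstream of the Jun kinases, was 228 ± 25 CPM in mechanoreceptors and 237 ± 22.6 CPM in the midline and was not called. The number toward mechanoreceptors was 5 without mechanoreceptor library 8, and the number toward the midline ranged from 2 without mechanoreceptor library 9 to 10 with upper-quartile scaling.

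Of 36 further stimulus-response genes tested, 8 were called toward mechanoreceptors and 4 toward the midline. These were 22.2% and 11.1%, beside 18.8% and 18.9% of all genes, with a median log2 fold change of -0.11 over the list. The receptor kinase feedback genes Spry2 and Spry4 had log2 fold changes of 1.56 and 1.94 (adjusted p = 0.00351 and 0.00424), and the polo-like kinase gene Plk2 had 1.23 (adjusted p = 0.0096). Crem, Tob1 and Rgs2 were higher in the midline, at -1.31, -1.45 and -0.83. That midline count was 1 without mechanoreceptor library 8, 2 without midline library 5, and 8 with upper-quartile scaling or DESeq2.

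The oxidative stress list, with the targets of NRF2 and the metallothioneins, had 7 genes higher in mechanoreceptors and 1 in the midline among 17 tested. These were 41.2% and 5.88%, beside 18.8% and 18.9% of all genes. Sqstm1, an autophagy receptor, had a log2 fold change of 1.27 (adjusted p = 0.00835), the thioredoxin reductase gene Txnrd1 0.98 (adjusted p = 0.0254) and the peroxiredoxin gene Prdx1 0.74 (adjusted p = 0.0437). The metallothionein gene Mt2 was higher in the midline at -2.52 (adjusted p = 0.0243). The metallothionein genes Mt1 and Mt3, named here after their values were seen, had other results. Mt3 was higher in mechanoreceptors at 3.25 (adjusted p = 0.0136), with a midline mean of only 0.393 CPM. Mt1 was not called, at -0.91 (adjusted p = 0.0876). Toward mechanoreceptors the number was 4 with upper-quartile scaling or without mechanoreceptor library 8 and 3 without library 9. The p53 target list had 3 genes in each direction among 15 tested, or 20% each, near the shares of all genes, with Zmat3 at 1.41 and Trp53inp1 at -3.55. Without midline library 2, 5 of its genes were higher in mechanoreceptors.

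None of the 19 tested targets of YAP and serum response factor in the cytoskeleton was higher in mechanoreceptors, and 11 (57.9%) were higher in the midline. The shares of all genes were 18.8% and 18.9%, and the median log2 fold change of the list was -2.26. Without midline library 2, 1 was higher in mechanoreceptors. These included the factor gene Tead1, at 37.9 ± 4.94 CPM against 305 ± 149 CPM (SD, n = 3; log2 fold change -3.01, adjusted p = 0.00125), and the contractile genes Acta2 and Tpm2. Tpm2 had 1284 CPM in midline library 2, 17.8 CPM in library 3 and 134.7 CPM in library 5, the order of the muscle markers, whose part in these levels was not tested. Of 17 genes of axon injury and regeneration, 8 were higher in mechanoreceptors and 2 (Npy and Ecel1) in the midline. They made up 58.8% of the list, beside 37.8% of all genes. The most abundant of those higher in mechanoreceptors were the growth cone protein gene Gap43 and the neuronal tubulin gene Tubb3, with log2 fold changes of 3.47 and 3.38 (adjusted p = 0.00143 and 0.00167), and both are also expressed by developing sensory neurons without injury. The neuropeptide genes Nts and Gal, named here after their values were seen, had larger log2 fold changes, of 4.01 and 3.52 (adjusted p = 0.00224 and 0.0015).

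The authors' deposited log2 fold changes and false discovery rates were read beside these calls. A member was marked at an authors' false discovery rate under 0.05 and at least a 2-fold difference, while the calls here had no fold cutoff. Of the 20 members called here, 18 were marked in the same direction. Atf4 and Btg1 were called here and not marked. The authors' false discovery rate was 0.0335 for Atf4, which missed only the fold cutoff, and 0.16 for Btg1. Egr2, Hspa1a and Hspb1 were marked and not called here.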

How the data were processed

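RNA was sequenced from 3 mechanoreceptor and 3 midline libraries. The authors deposited a table with raw read counts for each RefSeq transcript in each library, and the build mm9 and edgeR are named in the submitters' processing notes. The aligner, the counting tool and the strand setting are not given in the sources used here. Beside counts the deposited table held log2 expression values with an equal maximum in all 6 libraries, the authors' log2 fold changes with a false discovery rate p-value, and a column named Best that no header explains (another kind of value). It was 0 in every row of some genes, and 1 alternative preferred rows in which it was 1.

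Of 28644 transcript rows, the row with the highest summed count was kept for each of 22869 symbols, of which 3705 had more than 1 row. Reads in shared exons can be counted in several rows. Among the members, Hspa5, Nr4a2 and Myc had more than 1 row. The kept rows summed to 8670720 to 9879246 counts per mechanoreceptor library and 3963049 to 5648620 per midline library. The test used edgeR 4.0.16 in R 4.3.3: filterByExpr (minimum count 10, minimum total 15), TMM scaling, glmQLFit and glmQLFTest without covariates on 4 residual degrees of freedom, and Benjamini-Hochberg adjustment over 15314 genes. Adjusted p-values come from it wherever no other tool is given. The SE is the size of the log2 fold change over the square root of F. The script was tested on simulated data. Alternatives used DESeq2 1.42.0 and limma 3.58.1, the latter also on the deposited log2 values.

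All 46 members are accounted for. Values in every library are given for members called without overlap and with at least 50 CPM in the higher group, for the largest fold in each direction in each role, and for 10 genes listed by name. Other values by library were added after they were seen, for Fosb, Junb, Nr4a2, Ier5, Dusp1 and Zfp36. Of each other list, up to 3 called genes in each direction and 1 not called were taken by mean CPM. That rule gave start regions to the most abundant member of a role, and the 5 shown were chosen instead. The members and all lists were chosen with earlier results of these data known. The reference annotation is of another build than the files, so no gene positions are given beside the RefSeq start regions.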

Additional observations from a re-analysis of the deposited data

How the results depend on the processing

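Of the 20 members called, 8 (Fos, Fosb, Jun, Junb, Klf4, Klf6, Hspa8 and Hsp90aa1) kept their call and direction under all 16 alternatives, and 12 lost the call under at least 1, in each case with the same direction. Over the fits that left out 1 library, the members higher in mechanoreceptors numbered 8 to 18 and those higher in the midline 2 to 5. With a fold of at least 2 they numbered 8 to 17 and 1 to 4, and those whose midline libraries lay above numbered 6 to 10. With a fold of at least 2, 5 were higher in the midline with upper-quartile scaling and 5 with DESeq2. In the other pathway lists together, 31 genes were higher in the midline, 51 with upper-quartile scaling and 18 to 46 when a library was left out. Upper-quartile scaling moved the median log2 fold change of all genes from -0.05 to -0.26 and the mechanoreceptor share of all calls from 49.9% to 36.9%, and it left 13 members higher in mechanoreceptors and 5 in the midline. Testing all genes without a filter moved that median to -0.30, over 22217 genes.

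The log2 fold change reversed only in members that were not called. Without 1 replicate it ranged from -0.39 to 1.30 for Fosl2, -0.94 to 0.45 for Dusp2, -0.35 to 0.47 for Gadd45a, -0.66 to 0.46 for Gadd45b, -0.006742 to 0.25 for Klf10, -0.16 to 1.29 for Cyr61 and -0.50 to 0.14 for Hspa5. For Fosl2 it was 0.083 with no filter, 0.41 with limma-voom and 0.52 with the deposited log2 values. For Dusp2 it was 0.044 with no filter and 0.40 with the deposited log2 values. For Gadd45a it was -0.12 with upper-quartile scaling and -0.062 with limma-voom. For Gadd45b it was 0.22 with the deposited log2 values. With upper-quartile scaling it was -0.088 for Klf10 and -0.16 for Ddit3. The cause of these changes was not tested.

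No paired analysis was possible because the groups came from embryos of different genotypes. The replicate number 2, which both groups share, does not make its libraries a pair. With 3 libraries per group, 1 library decides many calls. Low counts limit precision in either group, as for Junb in the midline and Nr4a3 in mechanoreceptors.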
